A study of Mus musculus with 82 samples.

Results

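The replication-dependent histone genes of the mouse were followed through 3 run-on assays of nascent RNA in V6.5 embryonic stem (ES) cells. Members were the genes on chromosomes 3, 6, 11 and 13 whose symbols are H1f1 to H1f5 or H2ac, H2bc, H3c or H4c with a number. These symbols gave 62 genes, all on chromosomes 3 and 13. A further 5 histone genes on chromosomes 6, 11 and 13 were added by position and family. This gave the 67 genes described here, of 24755 genes with a curated RefSeq transcript. The added genes were H4f16 on chromosome 6, H2bu2, H2aw and H3f4 on chromosome 11, and H4bc24 on chromosome 13, which encodes an H2B protein despite its symbol. Leaving these 5 genes out moved the mean share of reads by less than the spread between replicates in each assay.

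V6.5 is a mouse ES cell line of hybrid background (C57BL/6 and 129/sv). All groups were this 1 line, grown in serum with leukaemia inhibitory factor, and no group carried an allele or agent that another lacked. The groups differed in the assay. In AGTuC, bulk nuclei were lysed by the detergent sarkosyl during the run-on reaction with clickable nucleotides. In inAGTuC, a much lower detergent concentration kept nuclei intact, and wells of many nuclei were barcoded. In scGRO–seq, the same low-detergent run-on was followed by sorting of single nuclei into wells. The analysis used 10 batches of scGRO–seq, which served as replicates, 4 inAGTuC libraries and 2 AGTuC libraries of 1 batch. The AGTuC libraries share no batch with the other assays, so that batch and assay cannot be told apart for them.

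Replication-dependent histone genes supply the core histones H2A, H2B, H3 and H4 and the linker histone H1 that package newly replicated DNA. They lie in clusters, most have no introns, and they are transcribed mainly in S phase in a nuclear compartment called the histone locus body. Their mRNAs are not polyadenylated. The 3′ end is formed by a single cut just past a conserved stem-loop, which is bound by the stem-loop binding protein and is directed by the U7 small nuclear ribonucleoprotein. The histones of replication-independent genes are made from polyadenylated mRNA throughout the cell cycle.

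Of the 67 genes, 53 were on chromosome 13, 10 on chromosome 3, 3 on chromosome 11 and 1 on chromosome 6. By family there were 5 H1, 18 H2A, 18 H2B, 13 H3 and 13 H4 genes. The stem-loop was searched for as GGNNNTNTNNANNNCC on the RNA strand, from 100 bases before to 60 bases past the annotated end in GRCm38. It was found in 62 members, in each of them with all 6 base pairs of the stem, and its last base lay 3 to 9 bases before the annotated end (median 5 bases before it). Among 24688 other genes 177 matched (0.717%), and only 3 of these had all 6 pairs. These 3 were H1f6, a linker histone gene on chromosome 13, the H2B pseudogene H2bu1-ps on chromosome 11, and Zpbp on chromosome 11. The letters were not found in this window of H2bc21, H2ac22, H3c8, H3c6 and H4c1. The sequences of 6 members are printed because the results turn on where reads ended relative to them, with the stem-loop in capitals and 6 bases on either side, 5′ to 3′ on the RNA strand and with T for U.
H1f3: tcaaacGGCTCTTTTCAGAGCCacccac
H2ac20: caaaaaGGCTCTTTTTAGAGCCaccaaa
H2bc18: ccaaaaGGCTCTTTTCAGAGCCacttta
H3c1: accaaaGGCTCTTTTCAGAGCCacacac
H4c4: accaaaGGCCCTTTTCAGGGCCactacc
H4c14: cctaacGGCCCTTTTTAGGGCCaaccac

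The stem-loop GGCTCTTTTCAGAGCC, as in H1f3, H2bc18 and H3c1, was that of 42 members. The variant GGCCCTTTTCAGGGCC of H4c4 occurred in 8 members and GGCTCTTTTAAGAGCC in 7. The stem-loops printed lie at chr13:23555787-23555802 on the plus strand for H1f3, chr3:96220418-96220433 on the minus strand for H2ac20, chr3:96270171-96270186 on the plus strand for H2bc18, chr13:23761890-23761905 on the minus strand for H3c1, chr13:23581950-23581965 on the plus strand for H4c4 and chr3:96262939-96262954 on the minus strand for H4c14. Each is in the last part of the annotated, intronless transcript, past its coding sequence.

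The promoters differed between families in the motifs they held. RefSeq promoter sequences of GRCm38.p6, from 250 bases before to 50 after the start, were matched for 62 members, and both strands were searched, with each motif counted by itself also where motifs overlap. The octamer ATTTGCAT, which POU factors such as Oct-1 bind, was in 7 of 18 H2A and 7 of 16 H2B promoters, against 1.70% of 32788 other promoters. CCAAT was in all matched H1, H2A, H2B and H3 promoters and in 3 of 12 H4 promoters (37.3% of other promoters). GGTCCG, the core of the site that the factor Hinfp binds in H4 promoters, was in 11 of 12 H4 promoters (8.23% of others), and AAACACA was in 4 of 5 H1 promoters (7.17% of others). TATAAA was in 36 of 62 promoters (13.5% of others). H2A and H2B genes often lie head to head, so that the same stretch of DNA can serve as the promoter of both. The promoters of 4 members, from families that differ in these motifs and whose reads are described below, are printed 5′ to 3′ on the strand of the gene from 130 bases before to 50 after the start, with the motifs in capitals. They are H1f3 at chr13:23554902-23555081 (plus strand), H2ac20 at chr3:96220831-96221010 (minus strand), H2bc18 at chr3:96269570-96269749 (plus strand) and H4c4 at chr13:23581438-23581617 (plus strand).
H1f3: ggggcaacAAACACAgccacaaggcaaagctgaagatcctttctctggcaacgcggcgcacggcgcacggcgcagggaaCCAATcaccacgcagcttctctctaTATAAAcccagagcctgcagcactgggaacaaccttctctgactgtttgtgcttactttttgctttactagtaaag
H2ac20: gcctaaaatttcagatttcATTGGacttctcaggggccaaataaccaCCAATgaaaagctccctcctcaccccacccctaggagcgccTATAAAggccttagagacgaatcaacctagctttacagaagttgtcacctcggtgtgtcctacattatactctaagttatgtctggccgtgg
H2bc18: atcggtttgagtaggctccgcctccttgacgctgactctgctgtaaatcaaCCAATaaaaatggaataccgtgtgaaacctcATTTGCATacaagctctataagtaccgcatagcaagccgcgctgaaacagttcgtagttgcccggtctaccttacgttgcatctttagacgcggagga
H4c4: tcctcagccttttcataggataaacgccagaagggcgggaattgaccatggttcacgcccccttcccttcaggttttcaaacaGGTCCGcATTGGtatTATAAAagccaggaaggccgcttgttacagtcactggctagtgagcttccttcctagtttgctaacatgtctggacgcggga

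Each line of the deposited lists is a molecule, told from its copies by a unique molecular identifier (UMI), and its position here is the 3′ end of the nascent RNA, where the polymerase was. Molecules listed in more than 1 library (28.9% of the reads of the 10 batches) were left out of every library. The kept scGRO–seq data were 2512 cells of 35 libraries with a median of 3435.5 UMIs, and the batches held 223119 to 4928371 reads, the inAGTuC libraries 623265 to 1462003 and the AGTuC libraries 2231837 and 4755740. The cells carried 254 cell barcodes, of which 226 were used in more than 1 library, since plates share a barcode set. The 10 pluripotency markers, among them Pou5f1, Nanog and Sox2, summed to 281 to 1618 RPM (reads scaled to the depth of the library) in the scGRO–seq batches, 443 to 924 in inAGTuC and 1615 to 1722 in AGTuC, while 6 fibroblast markers stayed at or below 44.7 in every column. The 8 markers of differentiated lineages summed to 16.7 to 78.1 RPM in scGRO–seq, 32.98 to 54.04 in inAGTuC, with Myod1 at 0, and 20.2 to 22.3 in AGTuC, with T and Myod1 at 0, and their part in the results was not tested. Histone genes are near copies of each other, which limits how many of their reads can be placed. A median of 34.5% of the 31-base words of a member occur once in the genome, 46 members were under 50%, and H2ac23, H2ac24, H2bc23 and H4bc24 had none. Reads that map equally well to several places are not in the lists, so that levels of such members are lower bounds in all assays.

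Histone genes took a larger share of the reads in AGTuC than in either low-detergent assay. Sense reads in the 67 genes made up 1540 and 1730 RPM in the 2 AGTuC libraries. They made up 297, 320, 309 and 117 RPM in the inAGTuC libraries Exp208_c12, Exp208_c14, Exp234_c11 and Exp261_c16. In the scGRO–seq batches they ran from 54.1 in Exp246 to 382 in Exp264a, with a median of 116. The means were 1634.6 ± 134 (SD, n = 2) in AGTuC, 261 ± 96.1 (SD, n = 4) in inAGTuC and 165 ± 104 (SD, n = 10) in scGRO–seq. Both AGTuC libraries lay above all libraries and batches of the other assays, while the scGRO–seq and inAGTuC values overlapped. Batch Exp208 holds both low-detergent assays, and there scGRO–seq gave 281 RPM against 297 and 320 in inAGTuC. These shares rest on 11662 member reads in AGTuC, 1071 in inAGTuC and 1490 in scGRO–seq. A lower share in a bulk library cannot tell fewer transcribing cells from less transcription per cell.

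**Figure D1:**
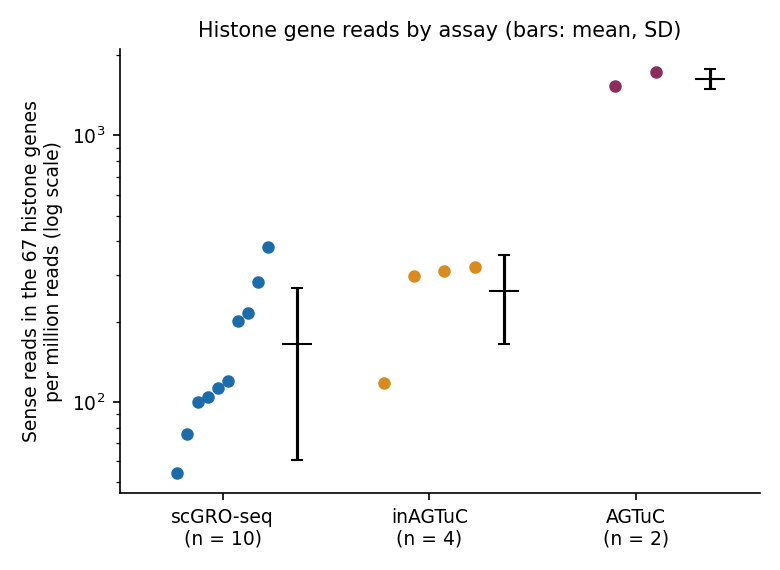
Sense reads in the 67 histone genes in RPM on a log axis, 1 point for each scGRO–seq batch (n = 10), inAGTuC library (n = 4) and AGTuC library (n = 2), with black bars for mean and SD. Both AGTuC libraries (1540 and 1730) lie above every other point, and the lowest inAGTuC point is Exp261_c16 at 117.

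The aligned length of reads moved with the assay. Reads in members had a median of 69 aligned bases in both AGTuC libraries, 42 to 49 in the inAGTuC libraries and 39 to 60 in the scGRO–seq batches. With only reads aligned over at least 40 bases, an alternative chosen after seeing the data, the mean shares were 286 RPM in scGRO–seq, 403 in inAGTuC and 1715 in AGTuC. The part of read length in the difference that remains was not tested.

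Per kilobase of gene, the H1 and H4 genes were read most. H1 genes stood at 135 ± 7.31 RPM per kb in AGTuC (SD, n = 2), 17.4 ± 4.96 in inAGTuC (SD, n = 4) and 10.1 ± 5.93 in scGRO–seq (SD, n = 10). H4 genes followed at 69.3 ± 8.07, 9.98 ± 3.49 and 7.32 ± 6.73. The H2A, H2B and H3 genes lay lower, at means of 23.9, 31.6 and 25.1 in AGTuC and 2.58, 3.54 and 3.31 in scGRO–seq. How well reads can be placed differed too. In each H1 gene 71.6% or more of the 31-base words occur once, against the median of 34.5% over all members, and the part of this in the levels was not tested.

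Gene by gene, AGTuC was compared with inAGTuC in 1 limma fit over all genes, with p-values adjusted by the Benjamini–Hochberg method over 15999 genes and a threshold of 0.05. Of the 67 members 55 reached the minimum of 50 reads over all columns. Of these, 42 were higher in AGTuC and none was lower, where 25.7% of all genes tested were higher. Without their AGTuC reads 38 of the 55 members would fall below the minimum, against 12.7% of all genes tested, so that they entered the fit through the assay in which they are high. Of the 17 other members 16 were called higher. These 17 are the 5 H1 genes, H2ac15, H2bc3, H2bc12, H2bc18, H3c1, H3c6, H4c4, H4c6, H4c8, H4c9, H4c14 and H4f16, and H2bc12 was the 1 not called (1.09, adjusted p = 0.15). For the other members the p-values and the order by size below rest on entry through AGTuC. The median log2 difference was 2.34 over the members tested and 0.32 over all genes. With no minimum beyond 1 read, 42 of 66 members were higher with a median of 2.09, while over 23288 genes 4292 were higher and 6534 lower with a median of -0.29. Scaling by the median of ratios moved the median of all genes to 0.03 and that of members to 1.98, with 32 members called higher. Over all genes that scaling turned 4111 higher and 2865 lower calls into 2841 and 3554. Without inAGTuC library Exp261_c16 27 members were called higher, with 2625 of 15806 genes. Without AGTuC library Exp125c_c02 23 of 43 members tested were, with 1911 of 15067 genes, and by limma trend 18 members, with 1111 of 15999 genes.

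All 5 H1 genes were called higher in AGTuC, as were 7 of 13 H2A, 11 of 14 H2B, 8 of 11 H3 and 11 of 12 H4 genes tested. Most of the H2A, H2B and H3 genes tested had entered the fit only through their AGTuC reads. So had H4c1, H4c2, H4c3, H4c11, H4c12 and H4c18 among the H4 genes. H1 histones bind linker DNA between nucleosomes, and H1f3 had the most reads among them in AGTuC. H1f3 (chr13:23555032-23555807) stood at 120 and 138 RPM in AGTuC, at 20.9, 14.6, 22.6 and 13.1 in inAGTuC, and from 0 to 16.3 (median 7.37) in the scGRO–seq batches. The AGTuC values lay above all values of the other assays. The log2 difference of AGTuC from inAGTuC was 2.57 ± 0.41 (SE, adjusted p = 0.00018). H1f2 stood at 86.9 and 102 RPM in AGTuC and at 4.81, 10.95, 12.3 and 3.44 in inAGTuC, a log2 difference of 3.41 ± 0.55 (adjusted p = 0.00018). H1f1 and H1f5 had values of 2.76 and 3.05, and H1f4 the lowest of the family with 2.04 ± 0.51 (adjusted p = 0.0037).

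Among the H2A and H2B genes, the members with the largest differences lay on chromosomes 3 and 13. H2ac20 on chromosome 3 (chr3:96220413-96220880) stood at 41.7 and 48.2 RPM in AGTuC, at 3.21, 2.43, 3.42 and 1.37 in inAGTuC, and from 0 to 6.50 (median 1.16) in scGRO–seq. Its groups did not overlap, and the log2 difference of AGTuC from inAGTuC was 3.60 ± 0.56 (adjusted p = 0.00014), in a gene with 28 reads outside AGTuC that was tested only through its 322 AGTuC reads. Its neighbour H2ac21 had 140 reads in AGTuC and 3 in inAGTuC. H2bc22 on chromosome 13 had the largest fitted log2 difference of the members called, 4.07 ± 0.68 (adjusted p = 0.00023), from 24.6 and 28.6 RPM in AGTuC and 0, 1.22, 4.79 and 0 in inAGTuC, and it too was tested only through AGTuC, with 22 reads in the other assays. H2bc21, whose annotated transcript of 2667 bases is far longer than that of its neighbours, had 114 reads in AGTuC and 3 in inAGTuC. H2bc18, the member with the most scGRO–seq reads, had a smaller log2 difference of 2.01 ± 0.44 (adjusted p = 0.0015). It stood at 52.4 and 63.7 RPM in AGTuC, 12.8, 9.74, 12.996 and 9.62 in inAGTuC and 4.13 to 27.1 (median 7.46) in scGRO–seq.

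For reads within the gene, H2bc15 was the exception among the H2B genes. It stood at 2.24 and 3.78 RPM in AGTuC, at 3.21, 6.09, 3.42 and 1.37 in inAGTuC and from 0 to 5.94 (median 3.54) in scGRO–seq. All 3 assays overlapped, and its log2 difference of AGTuC from inAGTuC was -0.44 ± 0.84 (adjusted p = 0.69). It was the 1 member of the 55 with a value below 0, and 24.9% of the 31-base words of the gene occur once. The 1 kb past its end had 92 reads in AGTuC, 4 in inAGTuC and 3 in scGRO–seq. That window was called higher in AGTuC than in inAGTuC, and was tested only through its AGTuC reads.

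Of the H4 genes, H4c14 on chromosome 3 (chr3:96262934-96263317) stood at 54.2 and 59.3 RPM in AGTuC and at 3.21, 8.52, 3.42 and 2.06 in inAGTuC, a log2 difference of 3.43 ± 0.73 (adjusted p = 0.0011). Its scGRO–seq batches ran from 0 to 27.1 (median 4.31). H4c11 had 108 reads in AGTuC, 4 in inAGTuC and 10 in scGRO–seq and so was tested only through AGTuC, with the largest fitted log2 difference of the family, 3.57 ± 0.65 (adjusted p = 0.00042). H4c4 had a smaller one of 2.27 ± 0.54 (adjusted p = 0.0026). H4f16, the only member on chromosome 6, stood at 47.5 and 55.9 in AGTuC and at 6.42, 14.6, 4.10 and 3.44 in inAGTuC, with 2.72 ± 0.53 (adjusted p = 0.00062). The groups of these members did not overlap between AGTuC and inAGTuC.

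The H3 genes ranged from 1.58 to 3.19. H3c1 (chr13:23761885-23762386) stood at 23.3 and 29.4 RPM in AGTuC and at 1.60, 4.87, 6.84 and 1.37 in inAGTuC, a log2 difference of 2.58 ± 0.79 (adjusted p = 0.013). H3c6 and H3c8, which lack the stem-loop letters near their annotated ends, had 2.34 ± 0.60 (adjusted p = 0.0041) and 2.43 ± 0.62 (adjusted p = 0.0038), and H3c8, with 43 reads outside AGTuC, was tested only through that assay. The 3 members on chromosome 11, which reached the minimum through their AGTuC reads, were all called: H3f4 with 3.19 ± 0.70 (adjusted p = 0.0015), H2aw with 2.81 ± 0.92 (adjusted p = 0.018) and H2bu2 with 2.54 ± 0.73 (adjusted p = 0.0087). Their reads in AGTuC, inAGTuC and scGRO–seq were 84, 4 and 11 for H3f4, 153, 15 and 18 for H2aw and 72, 5 and 3 for H2bu2. H3c10 and H2ac8 had values of 1.78 and 1.48 that did not pass (adjusted p = 0.077 and 0.076). The 12 members not tested had too few reads, and 5 members had no read in AGTuC, 7 none in inAGTuC and 3 none in scGRO–seq.

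**Figure D2:**
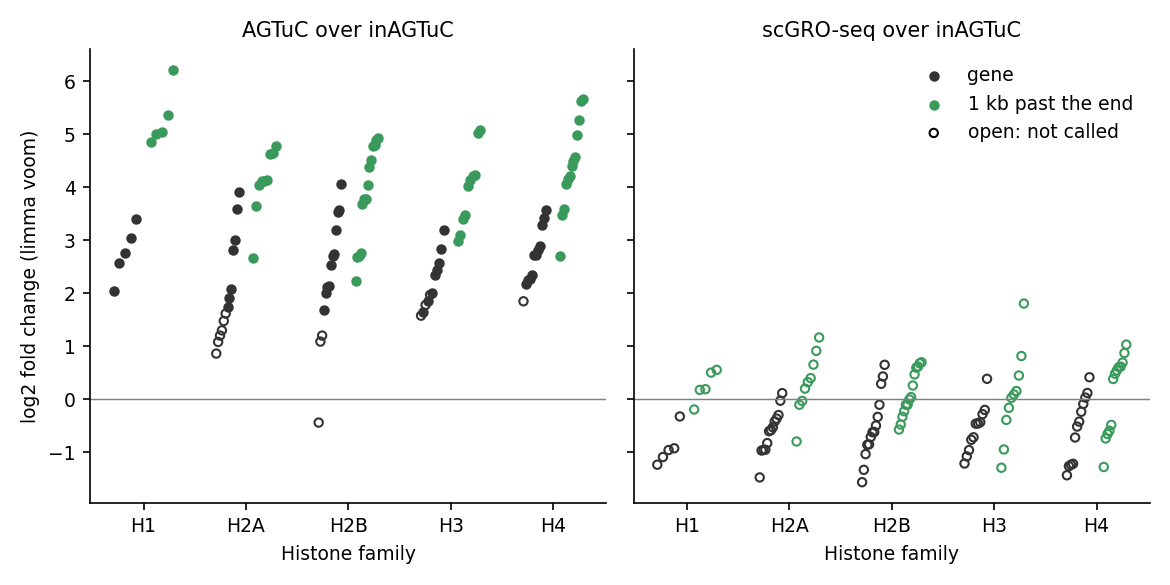
Fitted log2 fold changes of each member tested (limma voom), by family, for AGTuC over inAGTuC (left) and scGRO–seq over inAGTuC (right), with the gene in black and the 1 kb past its end in green. Filled points passed an adjusted p of 0.05. On the left all points but that of the H2bc15 gene lie above 0, with medians of 2.34 for genes and 4.21 past the end, and on the right no point is filled.

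No member was called between scGRO–seq and inAGTuC in this fit. None of the 55 members passed in limma voom or in limma trend, and 7 had an unadjusted p under 0.05. In limma voom 904 of 15999 genes had an unadjusted p under 0.05. Of all genes tested, 0% were called. The median log2 difference of scGRO–seq from inAGTuC was -0.60 over members and -0.15 over all genes, and 8 of the 55 were above 0. These medians were -0.27 and -0.08 without inAGTuC library Exp234_c11. With the experiment of each column as a fixed block, chosen after seeing the data, they were -0.13 and -0.07. Library Exp261_c16 had the fewest histone RPM of inAGTuC and is also listed under scGRO–seq. Without it 1 member, H2bc14, was called lower in scGRO–seq, 26 had an unadjusted p under 0.05 and the median was -1.24. Of 15806 genes, 164 were then called lower and 2867 had an unadjusted p under 0.05, with a median of -0.33. Between scGRO–seq and AGTuC, 54 of 55 members were lower in scGRO–seq, where 40.7% of all genes were lower, with medians of -2.90 and -0.49. Here too 38 of the 55 entered the fit only through AGTuC, the assay in which they are high, against 12.7% of all genes. The 17 others were all called lower. With no minimum beyond 1 read the direction over all genes turned, with 8785 higher and 6786 lower and a median of 0.20, while 54 of 66 members were lower and 5 higher. These 5, H3c15, H2bc23, H4c17, H2ac24 and H4bc24, held 1 or 2 reads in scGRO–seq and 0 or 1 in AGTuC. Scaling by the median of ratios turned the 3281 higher and 6516 lower calls over all genes into 4300 and 4396, and 52 members were then lower. H2bc14 had the largest difference, -4.77 ± 0.57 (adjusted p = 1.6e-06), from 45.3 and 47.9 RPM in AGTuC to 0 to 5.49 (median 0) in the scGRO–seq batches. H2bc11 followed with -4.57 ± 0.46, H1f2 with -4.34 ± 0.44, H2ac20 with -4.18 ± 0.41 and H4c3 with -4.02 ± 0.60. Of these 5 only H1f2 reached the minimum without its AGTuC reads, and the others had 28 to 37 reads outside AGTuC. H2bc15 alone was not called, at -0.06 ± 0.71 (adjusted p = 0.95), and its sign turned under the median of ratios and 3 other alternatives.

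Past the gene ends, fitted differences between AGTuC and the other assays had larger medians than in the genes, both over members (4.21 against 2.34 for AGTuC and inAGTuC) and over all features that reached the minimum (1.92 against 0.32), and this was not tested. The rise over all features was not seen with no minimum beyond 1 read. In the 1 kb past the annotated end, 57 members had a window free of other genes on their strand, and 51 of these reached 20 reads. All 51 were higher in AGTuC than in inAGTuC, where 43.6% of 5656 windows of all genes were higher. Without their AGTuC reads 43 of the 51 would fall below the minimum, and 87.3% of all windows tested. The 8 others were the windows of H1f2, H1f3, H1f5, H2ac12, H2bc8, H3c8, H3c14 and H3c15. With no minimum beyond 1 read, 45 of 57 members were higher, and of 19457 windows 1455 were higher and 640 lower, with medians of 4.16 over members and -0.67 over all windows. With the experiment of each column as a random block, chosen after seeing the data, 37 of the 51 were called higher, with 641 of 5656 windows, and the median over members was 4.27. H1f2 had 125 and 105 RPM past its end in AGTuC, 0, 0, 0.684 and 2.75 in inAGTuC and 0 to 3.25 (median 0.414) in scGRO–seq. Its window held more reads in AGTuC than its gene did, 777 against 679, and its log2 difference from inAGTuC was 6.22 ± 1.02 (adjusted p = 0.00027), the largest of the members called. H4c9 had 71.7 and 79.3 in AGTuC and 4.81, 3.65, 2.05 and 1.37 in inAGTuC, a log2 difference of 4.15 ± 1.00 (adjusted p = 0.0023), which became 3.95 (adjusted p = 0.055) with that block. H4c8 had 55.6 and 51.3 against 3.21, 1.22, 0.684 and 1.37, with 4.40 ± 0.93 (adjusted p = 0.00089). The windows of H4c9 and H4c8 each had 19 reads outside AGTuC and were tested only through it.

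Other members with large fitted differences past the end rest on few inAGTuC reads. The counts over all libraries were 466 in AGTuC and 3 in inAGTuC for H4c14, 291 and 2 for H4c4, 446 and 4 for H1f4, and 223 and 1 for H4c6. The window of H2bc18, of which 15.2% of words occur once, had 162 and 1. Between scGRO–seq and AGTuC all 51 windows, 43 of them tested only through AGTuC, were lower in scGRO–seq (41.1% of all windows), with a median of -4.00. With the random block 25 were lower, with 194 of 5656 windows, and the median was -4.04. With no minimum beyond 1 read 51 of 57 members were lower and 1 higher, while over 19457 windows 7207 were higher and 2253 lower, with a median of 1.04. H1f2, H3c10, H4c9, H1f1 and H1f4 had the largest of these differences, from -5.66 to -5.18, and all but that of H1f2 were tested only through AGTuC. Between scGRO–seq and inAGTuC none of the 51 windows was called in limma voom or in limma trend, and 0.0177% of all windows were called. In limma voom 3 of the 51 had an unadjusted p under 0.05, and 232 of 5656 windows. Both comparisons with AGTuC rest on the pair of AGTuC libraries. Without Exp125c_c01 none of 50 member windows was called against inAGTuC, and without Exp125c_c02 none of 47, while 46 and 42 of them had an unadjusted p under 0.05 and their medians were 4.34 and 4.16. Over all windows 1 of 4493 and 0 of 2722 were then called, with 1090 and 874 at an unadjusted p under 0.05.

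The density of reads fell past the end of histone genes in all assays, and did so later in AGTuC. It was taken as reads per base past the end over reads per base in the gene, summed over members. In AGTuC this ratio was 1.18 ± 0.00863 in the first 250 bp, 0.802 ± 0.0192 in the next 250 bp, 0.257 ± 0.0264 from there to 1000 bp and 0.0491 ± 0.00427 from there to 2000 bp (SD, n = 2). In inAGTuC it was 0.263 ± 0.141, 0.183 ± 0.123, 0.0628 ± 0.0105 and 0.0404 ± 0.0167 (SD, n = 4). In scGRO–seq it was 0.352 ± 0.163, 0.163 ± 0.135, 0.0792 ± 0.0498 and 0.0516 ± 0.0322 (SD, n = 10). Up to 1000 bp the AGTuC libraries lay above every library and batch of the other assays, and beyond that the 3 assays overlapped. Over the 7 members with at least 90% of words found once in the gene and past its end, chosen after seeing the data, the AGTuC ratio was 0.805 ± 0.110 in the first 250 bp (SD, n = 2), against 0.212 ± 0.0887 in inAGTuC (SD, n = 4) and 0.161 ± 0.186 in scGRO–seq (SD, n = 10). The AGTuC libraries lay above all others there, and overlapped scGRO–seq batches in the windows beyond. These 7 members include H2bc21, with a length of 2667 bases but 114 AGTuC reads in the gene and 3 in the 500 bp past it. Its length lowers the summed density in the genes and so raises the ratio, which is not that of a typical member. Other genes did not fall in this way. Their AGTuC ratio was 2.39 in the first 250 bp and 3.20 in the farthest window, and their scGRO–seq ratio went from 1.04 to 0.599. In this ratio each gene counts equally past the end but by its length within the gene. Over genes of unequal length it can lie above 1 without a rise past the end. For other genes only its course with distance is read, and its level is not set against that of histone genes.

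**Figure D3:**
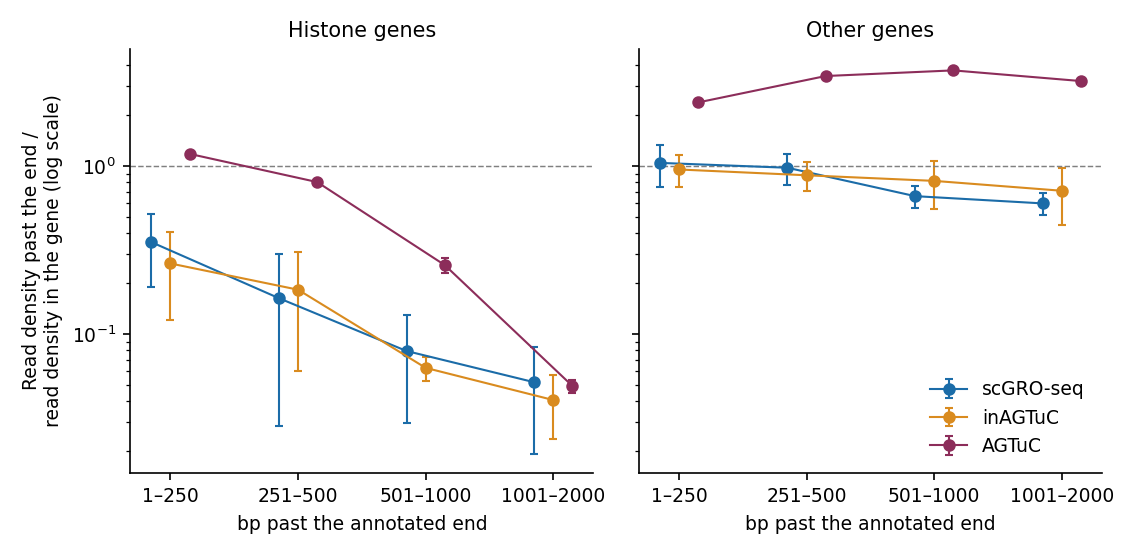
Read density past the annotated end over the density in the gene, on a log axis, by distance from the end for histone genes (left) and other genes (right), as mean and SD over AGTuC libraries (n = 2), inAGTuC libraries (n = 4) and scGRO–seq batches (n = 10). For histone genes AGTuC falls from 1.18 to 0.0491 across the windows, while for other genes it stays above 2, a level that also depends on their unequal lengths.

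In 50 bp steps around the end, both low-detergent assays had their highest mean in the last step of the gene, followed by a drop. The last step was the highest, or tied with another, in 7 of 10 scGRO–seq batches and 3 of 4 inAGTuC libraries. The inAGTuC library Exp234_c11 had 32.7% in the first step shown and 7.48% in the last. Over the 57 members with a free window, values are given as percent of the reads in the last 350 bp of the genes. The last 50 bp held 32.1% ± 9.84 in scGRO–seq (SD, n = 10) and 29.7% ± 14.8 in inAGTuC (SD, n = 4), against 18.3% ± 0.590 in AGTuC (SD, n = 2). All scGRO–seq batches (20% or more) lay above both AGTuC libraries there, while the inAGTuC libraries (7.48% to 37.96%) overlapped them. The first 50 bp past the end held 9.41% in scGRO–seq, 5.81% in inAGTuC and 13.95% in the lysed nuclei of AGTuC. The latter then stayed between 12.7% and 17.7% per 50 bp up to 350 bp past the end, and came down to 1.73% in the step that ends at 1 kb. The scGRO–seq batches and inAGTuC libraries varied widely from step to step, and their first 50 bp past the end rest on 76 and 26 reads. Single scGRO–seq batches had 12 to 198 reads in the last 350 bp. Reads in members also aligned over fewer bases in these assays than in AGTuC, and in most members fewer words occur once in the gene than past it. The part of this in the profiles was not tested.

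**Figure D4:**
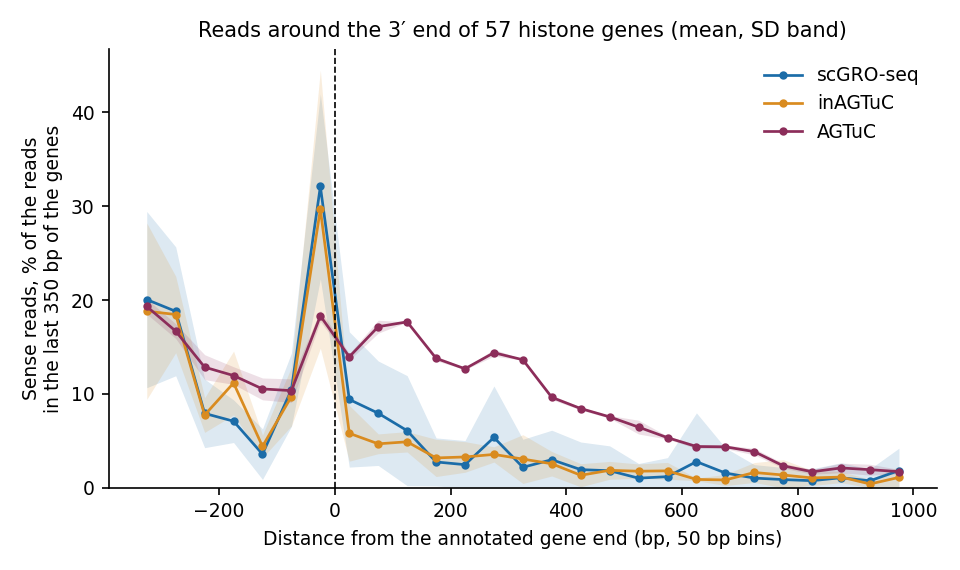
Sense reads in 50 bp bins around the annotated end of 57 histone genes, as percent of the reads in the last 350 bp of the genes, with lines for the mean and bands for 1 SD over replicates, held at 0 below. The means of scGRO–seq and inAGTuC peak in the last 50 bp (32.1% and 29.7%), though not in inAGTuC library Exp234_c11 (7.48%), and drop past the end, while AGTuC stays near its level in the genes for about 350 bp.

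Read ends within the stem-loop were not spread evenly in AGTuC. Counted from 1 at its first base, the stem-loop held 222 AGTuC reads that ended at base 5, from 39 members with no more than 11 from any of them, and 90 at base 7, from 36 members. A further 70 ended at base 20, past the stem-loop, from 27 members. Bases 11, 12 and 13 of the stem-loop held 1 read each. In the sequences printed above, base 5 is the last before the run of T. The scGRO–seq reads had 13 at base 2 and 12 at base 13, and inAGTuC 11 at base 2, too few to compare base by base. The 16 stem-loop bases held 4.72% ± 0.201 of gene reads in AGTuC (SD, n = 2), 4.99% ± 4.31 in inAGTuC (SD, n = 4) and 6.90% ± 3.94 in scGRO–seq (SD, n = 10), values that overlap. At the other end of the genes, the first 150 bases held 29.97% ± 2.62, 49.5% ± 19.1 and 45.1% ± 9.02, and both AGTuC libraries (28.1% and 31.8%) lay below all inAGTuC libraries and scGRO–seq batches. The part of aligned length and of placement of reads in this was not tested.

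Members differed in the number of reads past the end against that in the gene, a ratio that also moves with how many reads can be placed in each. Of 52 members with at least 50 AGTuC reads in the gene, 24 had at least as many AGTuC reads in the 500 bp past the end as in the gene. The median was 91.5% of the gene reads. In 48 of the 52 more of the 31-base words occur once past the end than in the gene, with medians of 99.9% and 42.03%. Of the 6 with at least 90% of words found once in both, H1f1, H1f5, H2bc21, H3f4, H4c14 and H4f16, chosen after seeing the data, none had as many reads past the end as in the gene, and their median was 36.2% (2.63% to 64.3%). H2ac11 had the highest value with 243 reads past the end and 53 in the gene, followed by H3c10 (327 and 92) and H3c3 (347 and 100), and these 3 were named after their values were seen. Of their gene words 22.9%, 26.02% and 31.04% occur once, against 99.9% or more past the end. The lowest were H3c6 with 6 reads past the end (2.35% of its gene reads) and H2bc21 with 3 (2.63%). Both lack the stem-loop letters near the annotated end and have transcripts longer than most members, with 911 bases for H3c6. The other 3 members without these letters had higher values, H4c1 264% (275 reads past the end and 104 in the gene), H2ac22 85.1% (80 and 94) and H3c8 77.3% (126 and 163). H3f4 (9 and 84), H2ac21 (19 and 140) and H2bc22 (34 and 191) came next. Of the 52, those with at least 10 reads in the gene in a low-detergent assay were also compared. Here 44 of 47 had a lower percentage in scGRO–seq than in AGTuC, and 44 of 44 in inAGTuC. The medians were 20.8% and 12.01%. Other genes went the same way in density, at 1.04 in scGRO–seq and 0.953 in inAGTuC against 2.39 in AGTuC in the first 250 bp. Antisense reads in members came to 2.29% of the sense reads in AGTuC, 25.1% in inAGTuC and 15.6% in scGRO–seq, on 267, 269 and 233 reads. H2ac21 alone held 108 of the AGTuC antisense reads, and without it the AGTuC value was 1.38%. By position H2ac21 lies within the 1 kb past the end of H2ac20 on the other strand. Its antisense reads are therefore also counted as reads past the end of H2ac20.

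Other genes of the pathway were also higher in AGTuC in part. Of 20 genes for the supply and processing of histone mRNA, 10 were higher in AGTuC than in inAGTuC and none was lower, against 25.7% higher of all genes, with a median log2 difference of 0.82 against the 2.34 of histone genes and 0.32 of all genes. Slbp, which encodes the stem-loop binding protein, had 1.24 ± 0.33 (adjusted p = 0.0056), and Lsm11 and Lsm10, subunits of the U7 particle, had 1.18 and 2.36. Hinfp, the activator of H4 genes, had 1.23 ± 0.44 (adjusted p = 0.030), while Npat, the coactivator of the histone locus body, had 0.24 (adjusted p = 0.54). Of 10 histone genes listed here as replication-independent, a class not checked gene by gene, 7 were higher, with a median of 1.26. H3f3b, which encodes the variant H3.3, had 3.33 ± 0.49 (adjusted p = 8.5e-05), H1f0 3.36 ± 0.59 and H2ax 2.89 ± 0.39, values within the range of the members, while H3f3a had 1.33 and Macroh2a1 0.58 (adjusted p = 0.28). Of 30 DNA replication genes 17 were higher (median 1.00) and of 20 mitosis genes 8 (0.34), where 25.7% of all genes tested were higher (0.32). The other counts were 8 of 10 pluripotency markers (1.26) and 48 of 80 ribosomal protein genes (1.73), with 2 lower. Of the genes that the study used to assign cell cycle phases, 3 of 4 for G1/S (1.16) and 4 of 6 for G2/M (1.29) were higher. Of 5 differentiated lineage markers tested none was higher and 1 was lower (-1.14), and of 3 fibroblast markers tested none was called (-0.08). None of these lists had a gene called between scGRO–seq and inAGTuC.

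In single cells, histone reads were sparse. Of 2512 kept cells, 992 (39.5%) had a read of a member, from 20.4% of cells in Exp246 to 75% in Exp264a. Reads of a single member were found in 704 cells and of 2 members in 198. Then 59 cells had 3, 22 had 4, and 8 cells had from 5 to 8, while a single cell had 11. The question was whether reads of different histone genes meet in the same cell more often than when the cell identity of reads is permuted within a library. The expected number was computed exactly from the reads per cell, and pairs of reads with the same UMI were left out.

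Pairs of reads of different members of 1 chromosome met in a cell 519 times, against 530.0 expected. The ratio was 1.03 ± 0.27 over batches (SD, n = 10) and above 1 in 5 of them. Pairs of members on different chromosomes met 271 times against 248 expected, with a ratio of 1.23 ± 0.45, above 1 in 7 of 10 batches. Batch Exp208 gave 78 of these against 43.3 expected, and without it there were 193 against 205 expected, with a ratio of 1.17 ± 0.43, above 1 in 6 of 9. For 62 members taken by symbol alone, chosen after seeing the data, there were 194 against 187 expected, with a ratio of 0.970 ± 0.650, above 1 in 4 of 10. The number of cells with 2 or more members was 286 against 307 expected, a ratio of 1.02 ± 0.23, above 1 in 4 of 10. Each of these mean ratios lay within 1 SD over batches of 1. That SD is the spread of single batches, so this is a description, and an excess over the permuted reads was not tested. With all deposited reads, which count molecules listed in several libraries, the ratios were 1.21 within chromosomes, above 1 in 9 of 10 batches, and 1.33 between them, above 1 in 8 of 10, while cells with 2 or more members numbered 623 against 711 expected, a ratio of 0.886 ± 0.111, above 1 in 2 of 10. All pairs of different genes had a ratio of 0.970 ± 0.0250, above 1 in 0 of 10 batches.

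The pairs are also described by distance, strand and family, with no test. Members less than 10 kb apart met 24 times against 33.8 expected, those 10 to 100 kb apart 136 against 124, those 100 kb to 1 Mb apart 138 against 139 and those farther apart 221 against 233. Pairs on the same strand met 234 times against 254.9 expected and pairs on opposite strands 285 against 275. Pairs of 1 family met 117 times within a chromosome against 100 expected, and 68 times between chromosomes against 48.7, with a ratio of 1.47 ± 1.13 over batches. Within chromosome 13 the counts were 507 and 519, and within chromosome 3 they were 11 and 10.7.

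The pairs seen most within a chromosome were H1f3 with H1f4, 9 times against 5.85 expected, and H1f5 with H2bc4, 6 against 0.877. H1f2 met H4c8 6 times (1.64 expected), H3c6 6 times (1.69 expected), and H1f1 met H1f3 6 times (4.03 expected). Between chromosomes, H2bc18 met H4c4 9 times (3.39 expected), H1f5 7 times (6.84 expected), H3c6 5 times (2.94 expected) and H1f4 5 times (5.09 expected). H4c14 met H4c3 6 times (2.59 expected) and H1f2 5 times (2.38 expected). These are among the highest counts of 1231 pairs of genes within and 555 between chromosomes, and reads of 1 cell can give several pairs. UMIs were the same in 1.37% of pairs of reads in a cell and in 0.257% of pairs in different cells.

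Reads of histone genes met reads of DNA replication genes 8822 times against 9531 expected. The ratio was 0.941 ± 0.110 over batches (SD, n = 10), above 1 in 3 of them. Beside it, the ratio with G1/S genes was 0.905 ± 0.174, with G2/M genes 1.11 ± 0.229, with mitosis genes 0.959 ± 0.147, with ribosomal protein genes 0.997 ± 0.233 and with all other genes 0.968 ± 0.0999. All of these lay within their spread of 1, and no order among them was read.

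**Figure D5:**
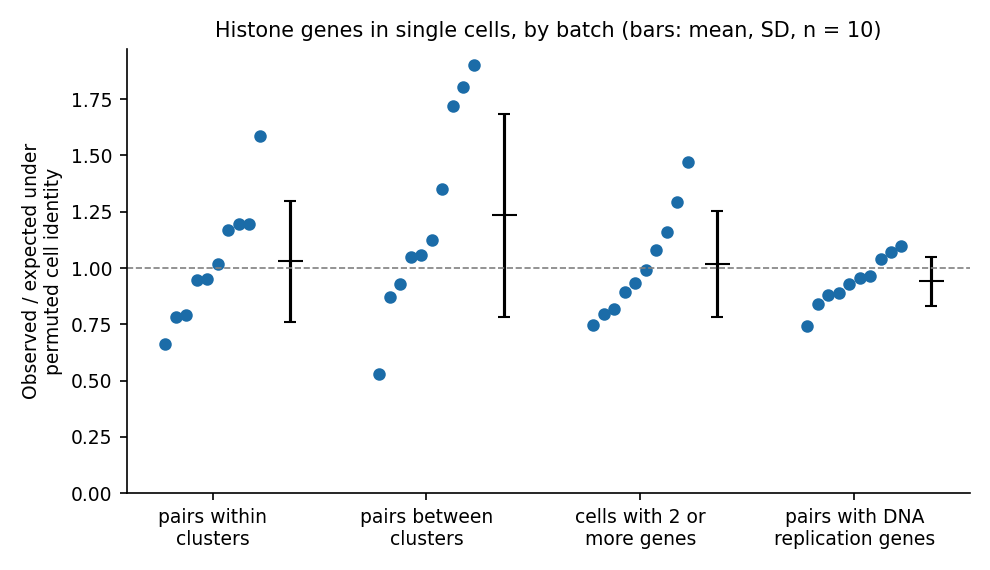
Observed over expected co-occurrence of histone gene reads in single scGRO–seq cells, 1 point per batch (n = 10), for read pairs within and between chromosome clusters, cells with 2 or more members, and pairs with DNA replication genes, with black bars for mean and SD. Points lie on both sides of 1 in all 4 columns, with means of 1.03, 1.23, 1.02 and 0.941.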

How the data were processed

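For every library the authors deposited a list of its molecules, with a score in column 5 that is the mapping quality of the read (3 to 44). Per the methods and processing notes they used cutadapt, Flexbar, Bowtie2 on mm10 and UMI-tools, in versions not given in the sources used here. The lists hold no normalized value. Sense reads were counted here on the RNA strand at the RNA 3′ end, for members over their shortest curated RefSeq transcript of GRCm38. Molecules listed in several libraries were dropped, and Exp261_c16 as listed under scGRO–seq was left out, since 99.7% of it is shared with the inAGTuC library of the same name. Kept cells had at least 1000 UMIs and 750 genes, in libraries of at least 24 such cells.

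Counts were tested with limma 3.58.1 (voom, eBayes) in R 4.3.3, with all 3 assays in 1 fit and each column scaled to its reads in genes, and adjusted p-values are Benjamini–Hochberg values over all genes. The scripts, run with Python 3.11.15, were tested on simulated data. The labels do not say which libraries came from separate cultures, so that p-values measure the spread between libraries, which may be technical. Shares and ratios are descriptions. Members named were the 3 with most scGRO–seq reads per family, all on chromosomes 6 and 11, up to 5 per contrast and direction among those called, and the 5 top pairs. The members and lists were chosen with earlier results of these data known.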

Additional observations from a re-analysis of the deposited data

Results flagged for a closer look

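In 88 groups of 4 to 10 values, 11 had a highest or lowest value far from the rest by Dixon's criterion. Chance flags about 1 in 20 groups where values are normal and groups are independent. Here some groups hold few reads, such as H3f4 with 11 over the scGRO–seq batches, and members are also part of their family groups. The 11 are thus not separate findings and cannot be set against that rate. Batch Exp264a of scGRO–seq was the highest by this measure for H2A genes (6.42 RPM per kb), H4 genes (24.2 RPM per kb), H2ac20 (6.50 RPM), H3f4 (5.42), H4c14 (27.1), H4c3 (15.2) and H4c8 (17.3). H2bc3 stood apart in Exp156 at 13.4 RPM. Among the inAGTuC libraries, Exp261_c16 was the lowest for all members (117 RPM) and for H2A genes (1.58 RPM per kb), and H4c3 was highest in Exp208_c12 at 8.02 RPM. The 22 scGRO–seq libraries outside the 10 batches entered no comparison but a co-occurrence alternative with all scGRO–seq batches. Over all their barcodes, not kept cells alone, they held 231 member reads among 3166314. That is 72.96 RPM, where 3 reads would give 0.947 RPM.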

How the results depend on the processing

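Of the results that answer a comparison, 309 values under an alternative kept their side of the threshold or stayed within the spread or within 1.5 times the count, and 30 moved. Of values for named members, 1557 kept direction and side, 184 kept direction but no longer passed, 2 newly passed and 5 turned sign. All 5 were H2bc15. Its log2 differences between scGRO–seq and AGTuC (-0.06) were 0.34 with columns scaled by the median of ratios, 0.0117 with no minimum beyond 1 read, 0.33 with all deposited reads and 0.10 by limma trend, and between AGTuC and inAGTuC (-0.44) it was 0.0613 with the random block. None of these passed. The cause of these changes was not tested.

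Histone genes called between AGTuC and inAGTuC numbered 18 by limma trend against 42, and 27 to 44 when each inAGTuC library was left out in turn. The median over members was 2.49 without AGTuC library Exp125c_c01 and 2.33 without Exp125c_c02. Between scGRO–seq and inAGTuC they numbered 0 to 1 when each inAGTuC library was left out, and no scGRO–seq batch was left out of a fit. With both AGTuC libraries kept, histone windows past the end numbered 37 to 51 between AGTuC and inAGTuC and 25 to 52 between scGRO–seq and AGTuC. These calls rest on both libraries. When either was left out, the remaining library is assumed to vary like the other groups. Without Exp125c_c01 and Exp125c_c02 the medians over members were 4.34 and 4.16 between AGTuC and inAGTuC. Between scGRO–seq and AGTuC they were -4.18 and -3.97. The share of reads moved to 286 RPM in scGRO–seq and 403 in inAGTuC with reads aligned over at least 40 bases, and to 1467 in AGTuC at a mapping quality of at least 10. At that quality the AGTuC density ratios were 1.31, 0.894, 0.289 and 0.0549 from the nearest to the farthest window. The ratio of the first 250 bp in AGTuC was 1.17 with all deposited reads, 1.12 with reads of at least 40 bases and 1.12 from the end of the stem-loop, and that of the next 250 bp was 0.754 and 0.772 under the latter 2. With reads of at least 40 bases the inAGTuC ratio of the window that ends at 1000 bp was 0.0395. Over the 7 members with words found once on both sides (6 in the farthest window), AGTuC ratios were 0.805 and 0.559 in the 2 nearest windows and 0.0229 in the farthest, inAGTuC ratios 0.0448 and 0.0225 in the 2 farthest, and scGRO–seq ratios 0.161 in the nearest and 0.0193 in the farthest. Where H2bc21 is among these members, its length raises the ratios. The ratio of histone with DNA replication genes was 0.734 when reads were permuted among all kept cells, which does not hold library and batch fixed.

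Over all genes, calls between AGTuC and inAGTuC numbered 6976, against 2302 by limma trend, 10826 with no minimum and 2837 without Exp125c_c02. The 9797 between scGRO–seq and AGTuC became 5021, 15571 and 5697. With no minimum, the 3281 higher and 6516 lower calls of that comparison became 8785 and 6786 over genes, and the 122 and 2326 over windows became 7207 and 2253, so that most calls over all genes and windows were then the other way. Between scGRO–seq and inAGTuC 0 became 181 without Exp261_c16. Over all windows, 2539 calls between AGTuC and inAGTuC became 879 with reads of at least 40 bases, 1370 without Exp261_c16, 1 without Exp125c_c01 and 0 without Exp125c_c02. The 2448 between scGRO–seq and AGTuC became 1247 with the median of ratios, 9460 with no minimum, 4376 with all deposited reads, 4171 by limma trend, 854 with reads of at least 40 bases, 7 without Exp125c_c01 and 0 without Exp125c_c02. The alternatives on 40 aligned bases, on the full span of transcripts, on 62 members and on 7 members were chosen after seeing the data. A fit of batch Exp208 alone gave no value, as no member reached 50 reads. The titles tie libraries by experiment, and of the columns compared only those of Exp208 hold both scGRO–seq and inAGTuC. With the experiment as a random replicate block, chosen after seeing the data, the correlation was 0.61 for genes and 0.66 for windows. Then 39 histone genes were called between AGTuC and inAGTuC, with 5312 of 15999 genes. Between scGRO–seq and AGTuC 53 were called, with 7913 of 15999 genes. Histone windows called numbered 37 and 25, while over all windows 2539 and 2448 calls became 665 and 213. No member was called between scGRO–seq and inAGTuC with the random block or with the experiment as a fixed block. The fixed block rests on Exp208 (2 residual degrees of freedom). With it 3 genes and 7 windows of members had an unadjusted p under 0.05, as did 1104 of 15999 genes and 558 of 5656 windows. Over all features that comparison had 0 genes and 9 windows called with the random block, and 10 and 23 with the fixed block, against 0 and 1. A fixed block allows no comparison with AGTuC, whose libraries share no experiment with the others.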
